A study of Drosophila melanogaster with 2 samples.

Results

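The Enhancer of split complex of Drosophila melanogaster and its neighbour groucho (gro) were examined in ChIP-seq peak lists for Araucan, an Iroquois homeodomain protein that binds DNA. The members were 8 of 13945 protein-coding genes on the 6 assembled chromosome arms, taken by name. They are the 7 bHLH genes E(spl)mdelta-HLH, E(spl)mgamma-HLH, E(spl)mbeta-HLH, E(spl)m3-HLH, E(spl)m5-HLH, E(spl)m8-HLH and E(spl)m7-HLH, together with gro. A locus here means a gene extended by 5 kb to either side, and 11 of the 4706 conservative peak summits on the arms fell in these loci.

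The study has 1 group with 2 biological replicates, per the labels. Both are whole embryos of 0 to 24 h from transgenic flies that make an ara-eGFP fusion, Araucan joined to a green fluorescent protein, with an insertion directed at ara. An antibody against the fluorescent protein pulled down chromatin sonicated to 200 to 800 bp. Whole embryos of this age range mix all tissues and most of embryogenesis, so a peak can come from a small share of cells, and the tissue that gave it cannot be told from these lists. The peak signal is the authors' own value. Control libraries were not used here, and without read counts in the files the sequencing depth is unknown.

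Notch signalling controls the complex. When a ligand activates the Notch receptor, its intracellular domain joins the DNA-binding factor Su(H) and the co-activator Mastermind and switches on E(spl) genes. The bHLH proteins made from them repress proneural genes, and they do so by recruiting Groucho, a co-repressor that does not bind DNA itself. Between the bHLH genes lie Bearded family genes, which encode small inhibitors of Neuralized, a ubiquitin ligase needed for ligand activity. Many of these genes carry Su(H) sites before their start, some arranged as a facing pair.

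All 8 members lie on 3R of dm6, and the loci formed 2 separate stretches. The first, chr3R:25992621-26011023, is 18.4 kb long and holds E(spl)mdelta-HLH, E(spl)mgamma-HLH and E(spl)mbeta-HLH. The second, chr3R:26016823-26054911, is 38.1 kb long and holds E(spl)m3-HLH, E(spl)m5-HLH, E(spl)m8-HLH, E(spl)m7-HLH and gro. The 5.8 kb between them held 1 more summit, so that 12 summits lay across the whole complex.

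Sequences reaching 50 bp to each side of the 5 strongest summits, and of the other summits within 500 bp upstream of a member's first TSS, are given below on the plus strand of the dm6 reference (NCBI Release 6). Capitals mark TAACA or its reverse complement, a short core bound by Iroquois homeodomains. The summit is the middle base. The first sequence is the strongest peak of the complex, in gro, and the next 3 lie before the starts of E(spl)m7-HLH, E(spl)m3-HLH and E(spl)mdelta-HLH. The fifth, the runner-up in signal, lies in CG43116 beside E(spl)mdelta-HLH. The sixth lies between E(spl)mbeta-HLH and E(spl)malpha-BFM, and the last is the weak peak before the first start of gro.
gro intron (chr3R:26042451-26042551): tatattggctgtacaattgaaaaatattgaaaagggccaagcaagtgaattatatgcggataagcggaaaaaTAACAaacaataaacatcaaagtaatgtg
E(spl)m7-HLH upstream (chr3R:26036572-26036672): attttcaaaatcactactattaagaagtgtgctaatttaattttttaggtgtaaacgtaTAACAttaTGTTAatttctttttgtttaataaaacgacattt
E(spl)m3-HLH upstream (chr3R:26021374-26021474): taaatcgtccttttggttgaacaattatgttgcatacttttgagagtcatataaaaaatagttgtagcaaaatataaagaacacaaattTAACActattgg
E(spl)mdelta-HLH upstream (chr3R:25997215-25997315): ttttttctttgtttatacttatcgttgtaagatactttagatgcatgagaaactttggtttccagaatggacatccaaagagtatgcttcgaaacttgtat
CG43116 intron (chr3R:25996560-25996660): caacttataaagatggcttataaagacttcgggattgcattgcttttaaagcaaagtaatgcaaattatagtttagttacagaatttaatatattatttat
E(spl)mbeta-HLH upstream (chr3R:26009087-26009187): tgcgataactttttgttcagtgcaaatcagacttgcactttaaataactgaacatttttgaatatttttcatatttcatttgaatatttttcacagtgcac
gro upstream (chr3R:26041555-26041655): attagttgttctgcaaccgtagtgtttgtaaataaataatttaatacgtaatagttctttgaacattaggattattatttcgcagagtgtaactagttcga

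Among these sequences the m7 window holds a pair of cores in opposite orientation, the m3 and gro windows hold 1 each, and the other 4 windows hold none. Their share of G and C ran from 20.8% in the m7 window to 31.7% in the mdelta window. Over the 11 summits in member loci the median was 28.7%, against 34.7% over all 4706 conservative summits. The lowest was the m7 window and the highest, at 60.4%, was the window in the gro intron at summit 26043391.

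Araucan peaks lay more densely in the complex than along the arms as a whole. The 2 stretches together span 56.5 kb and held 11 summits, or 1.95 per 10 kb, compared with 0.35 per 10 kb on the 6 arms. The first stretch had 2.17 and the second 1.84 per 10 kb. The signals ranged from 65.0 to 505 with a median of 148, against a median of 96.2 over all conservative peaks. These are descriptions of 1 region, because neighbouring peaks and overlapping loci are not independent and no test was made.

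**Figure D1:**
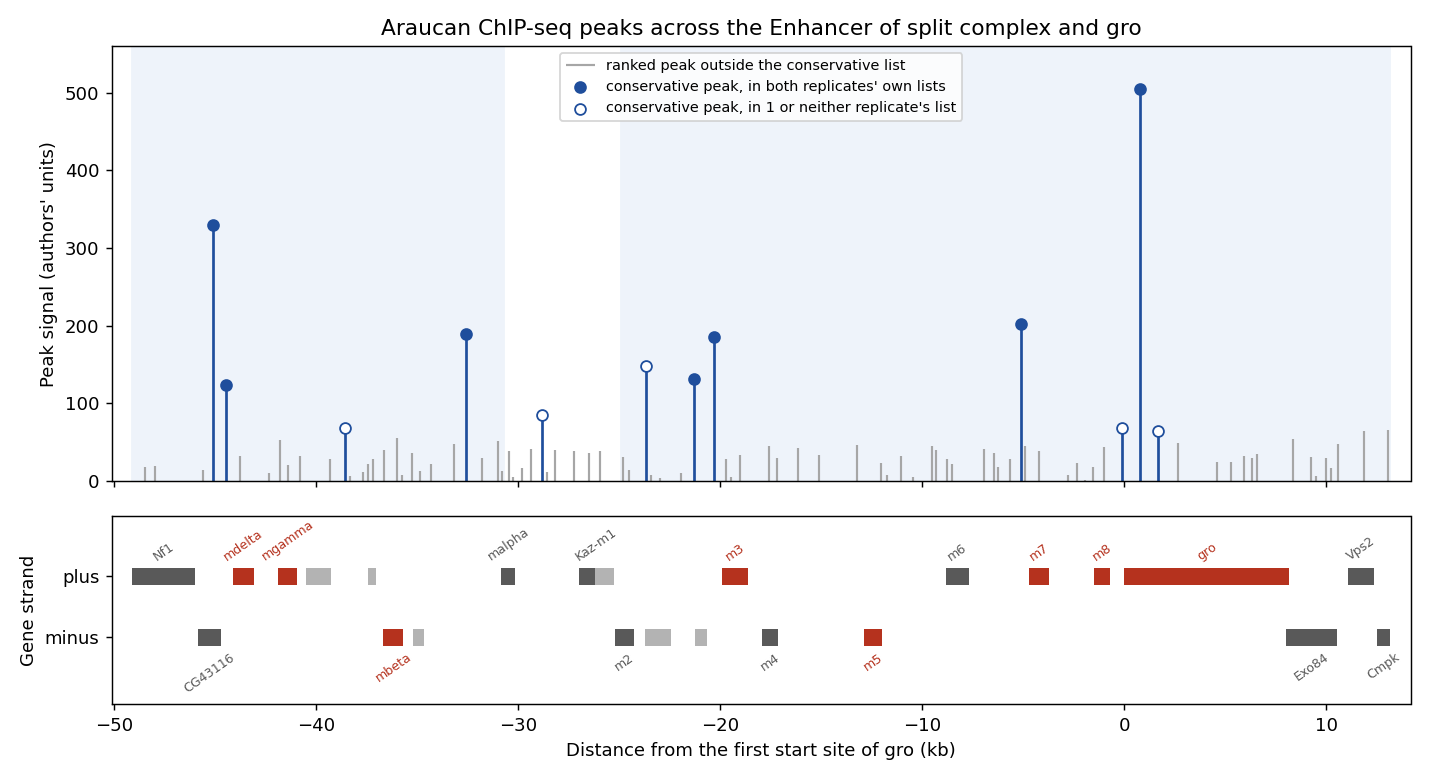
Peak signal in the authors' units (top) and gene positions by strand (bottom) against distance from the first start site of gro in kb. Shading marks the 2 stretches of member loci, red bars the 8 members, dark grey bars other coding genes and light grey bars non-coding genes. The highest peak, 505, lies just inside gro, and no conservative peak falls in the 15.2 kb between the summits before E(spl)m3-HLH and E(spl)m7-HLH.

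Of the 8 members, 7 had a conservative summit in the locus, where 43.7% of all protein-coding genes did. Among 2410 genes whose locus length lies in the range of the bHLH members, 35.8% had one, and 6 of the 7 bHLH members did. Loci with 3 or more summits made up 7.62% of all genes and 3.69% of genes in that length range. Here 6 of the 8 members and 5 of the 7 bHLH members had that many. These counts overstate the number of separate events, since 11 summits were shared out over 8 loci that mostly overlap. The summit just before gro, for example, counts for E(spl)m7-HLH, E(spl)m8-HLH and gro.

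The strongest peak belonged to gro, the co-repressor gene (FBgn0001139, chr3R:26041736-26049911, plus strand, 4 annotated transcription start sites, TSSs). Its 163 bp peak at chr3R:26042423-26042585 had a signal of 505, higher than 97.0% of conservative peaks and 142nd in rank. The summit at 26042501 lies in an intron, 765 bp past the first TSS of gro and 140 bp upstream of another gro TSS. Its signal was 224 in replicate 1 and 271 in replicate 2, and it ranked 116th and 181st in their own ranked lists. The replicates' own summits were 30 and 7 bp away from it. A summit at or above this signal was found in the loci of 2.98% of coding genes. The peak itself set that level, so the 3 members that reached it, all through this 1 peak, were bound to do so.

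Weaker peaks flanked it on both sides. At 26041605, 131 bp upstream of the first gro TSS, the signal was 67.8, with 35.6 in replicate 1 and 40.0 in replicate 2. This peak was in the thresholded list of replicate 2 only. At 26043391, in an intron and 571 bp past a gro TSS, the signal was 65.0, with 41.2 in replicate 1 and 25.9 in replicate 2. That peak was in the list of replicate 1 only, and it was the weakest of the 11. So a single strong peak and a pair of weak ones made up all conservative peaks in the gro locus.

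E(spl)m7-HLH, a bHLH repressor (FBgn0002633, chr3R:26037038-26038019, plus strand), had the strongest peak directly before the start of a bHLH member. Its summit at 26036622 lies 416 bp upstream of the TSS in intergenic sequence. The signal was 202, higher than 83.7% of conservative peaks, with 74.1 in replicate 1 and 135 in replicate 2, and both replicates' thresholded lists held it.

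E(spl)m3-HLH, another bHLH repressor (FBgn0002609, chr3R:26021823-26023127, plus strand), had 3 summits in its locus, all upstream. The nearest, at 26021424, lies 399 bp before the TSS of E(spl)m3-HLH and 348 bp before that of the non-coding gene lncRNA:CR43644 on the other strand. Its signal was 186, with 70.2 and 123 in replicates 1 and 2. The next, 1388 bp upstream at 26020435, had a signal of 132, with 46.1 and 82.7. The third, at 26018067, lies in an exon of lncRNA:CR43643, 597 bp upstream of E(spl)m2-BFM and 3756 bp upstream of E(spl)m3-HLH. It had a signal of 148, with 66.0 and 74.9, and was in the list of replicate 1 only, whereas both replicates listed the other 2.

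E(spl)mdelta-HLH (FBgn0002734, chr3R:25997621-25998633, plus strand), at the far end of the complex from gro, had a pair of peaks upstream. The summit at 25997265 lies between 2 divergent starts, 356 bp before E(spl)mdelta-HLH and 269 bp before CG43116. Its signal was 124, with 47.8 in replicate 1 and 84.7 in replicate 2. The stronger of the pair, at chr3R:25996565-25996697, is only 133 bp wide and lies inside an intron of CG43116, 386 bp past its start and 1011 bp before E(spl)mdelta-HLH. Its signal of 329 was higher than 93.0% of conservative peaks, with 132 in replicate 1 and 207 in replicate 2. Both peaks were in both replicates' lists. The 2 strongest peaks of the complex were also its only narrow ones, since the others had the width of 324 bp that 90.9% of conservative peaks have.

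The remaining bHLH members had no conservative summit near their starts. E(spl)mgamma-HLH (FBgn0002735, chr3R:25999851-26000761, plus strand) had its nearest summit 2586 bp upstream, at the E(spl)mdelta-HLH peak. E(spl)mbeta-HLH (FBgn0002733, chr3R:26005046-26006023, minus strand) lies between 2 peaks. The one 2855 bp downstream of its start, at 26003168, had a signal of 69.0, was equal at 33.9 in both replicates, and was in neither replicate's thresholded list. The one 3114 bp upstream, at 26009137, had a signal of 189, with 73.7 and 126, and both replicates listed it. The start nearest to that upstream peak is E(spl)malpha-BFM, a Bearded family gene 1756 bp away.

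E(spl)m8-HLH (FBgn0000591, chr3R:26040240-26041008, plus strand) counted 4 summits in its locus, the most of the 8 members, and none lay within 500 bp of its own start. The nearest lies 1365 bp downstream and is the weak peak before gro. E(spl)m5-HLH (FBgn0002631, chr3R:26028854-26029735, minus strand) was the 1 member with no conservative summit in its locus. The summit nearest to its start is that of E(spl)m7-HLH, 6887 bp away. In the thresholded list of replicate 2 the E(spl)m5-HLH locus held 2 peaks, with signals of 37.7 and 12.3, both closer to the start of E(spl)m6-BFM, so that all 8 members had a summit in that list.

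A summit within 500 bp of a gene's own TSS was found for 15.1% of coding genes and for 4 of 8 members, namely E(spl)mdelta-HLH, E(spl)m3-HLH, E(spl)m7-HLH and gro. The 3 bHLH summits lay at similar distances, 356, 399 and 416 bp upstream. Of 1725 summits within 500 bp of the nearest coding TSS, 11.0% lay 300 to 500 bp upstream and 52.1% lay 200 bp or less upstream, with a median position of 93 bp upstream. These shares take the nearest coding TSS, whereas the member distances are to the member's own TSS. By the nearest coding TSS, the E(spl)mdelta-HLH summit lies 269 bp upstream of CG43116, outside the 300 to 500 bp range. The gro summit, 131 bp upstream, lay in the commoner range. Narrowing the window to 250 bp left gro alone.

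The full ranked list, which also holds weak and unrepeatable peaks, had 80 summits in the member loci, 11 of them conservative. It is dense everywhere, with 1 peak per 910 bp of the arms. The other peaks in the member loci had signals up to 65.8 with a median of 29.1, compared with 20.8 for all ranked peaks outside the conservative list. Near the start of E(spl)mgamma-HLH the highest was 52.9, 66 bp inside the gene, with 22.1 in replicate 1 and 23.8 in replicate 2. At E(spl)mbeta-HLH it was 55.5, 291 bp inside, with 14.0 and 39.1, and replicate 2's own thresholded list held a peak there. At E(spl)m8-HLH it was 44.3, 488 bp inside, with 30.6 and 16.5. At E(spl)m5-HLH it was 23.7, 42 bp inside, with 9.86 and 11.4, and only 56.8% of ranked peaks were lower. Thus the order of the members by highest peak within 500 bp of the gene start was E(spl)m7-HLH, E(spl)m3-HLH, E(spl)mdelta-HLH, gro, E(spl)mbeta-HLH, E(spl)mgamma-HLH, E(spl)m8-HLH and E(spl)m5-HLH. For gro it takes the first TSS alone and leaves out the 505 peak, 140 bp upstream of another gro TSS. With that peak counted, gro would come first. The ranges of the 2 replicates overlap between neighbours in that order, except that both values of E(spl)mdelta-HLH lie above those of gro and both of E(spl)m8-HLH above those of E(spl)m5-HLH.

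**Figure D2:**
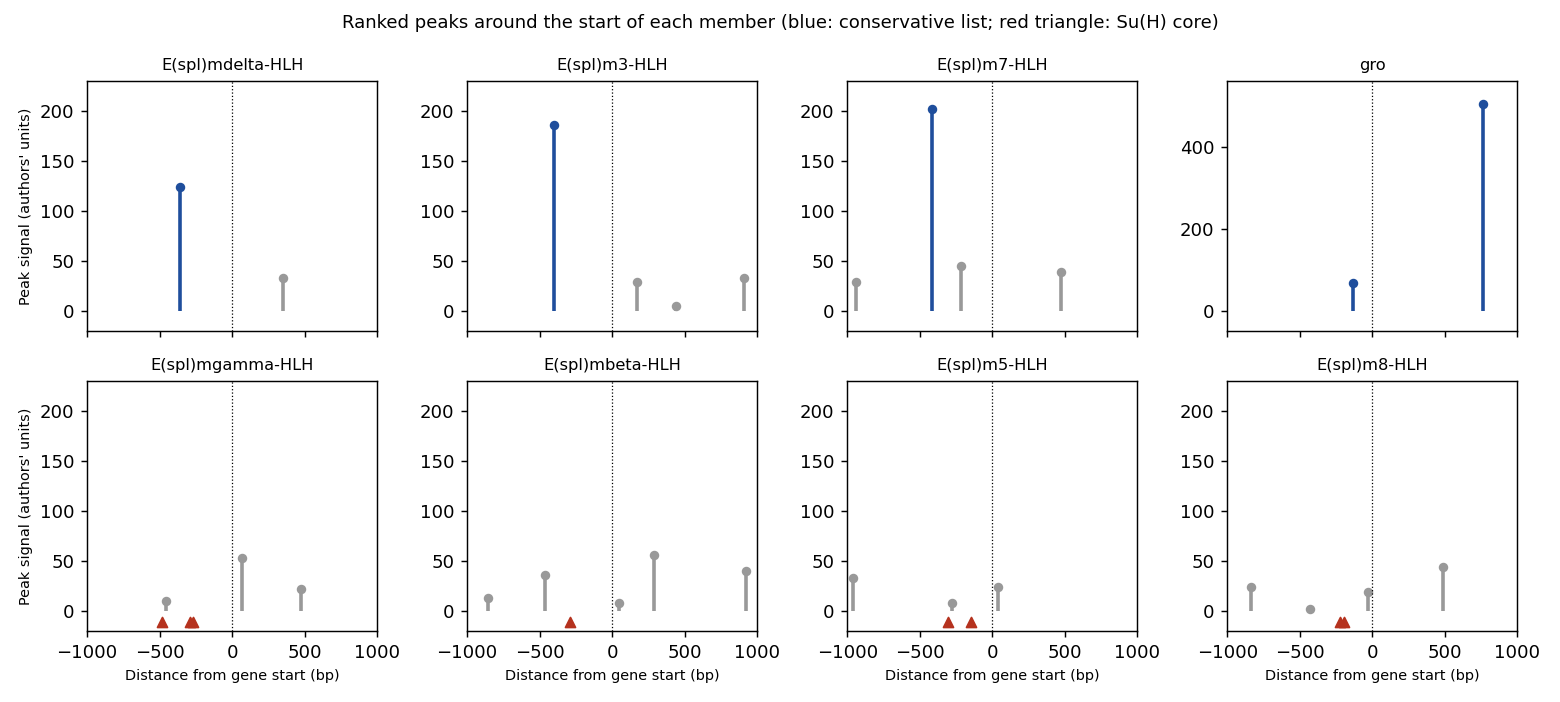
Signal in the authors' units of every peak of the ranked list within 1000 bp of each member's start, with negative distances upstream. Blue marks conservative peaks, grey other ranked peaks, and red triangles Su(H) core sequences found in the 500 bp upstream, and the gro panel has a taller scale. The 4 members in the top row have a conservative summit within 500 bp and no triangle, and the 4 in the bottom row the reverse.

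The 5 strongest peaks stood in the same order in both replicates, and the weaker ones did not. Of the 11 summits in member loci, 7 were in both replicates' own thresholded lists, against 44.9% of all conservative peaks. These 7 had signals of 124 or more, and the other 4, the 148 peak before E(spl)m2-BFM and the 3 weakest, were in 1 list or neither. Replicate 2 was higher at 9 of 11 peaks. The ratio of replicate 2 to replicate 1 ran from 0.63 to 1.83 with a median of 1.58, while over 4671 conservative peaks with both values the median was 1.31 and 3637 were higher in replicate 2. The strongest peak, in gro, had a ratio of 1.21. A summit common to both replicates' lists was found in 7 of 8 member loci and in those of 26.6% of coding genes. With 2 replicates, no interval is given for these ratios.

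**Figure D3:**
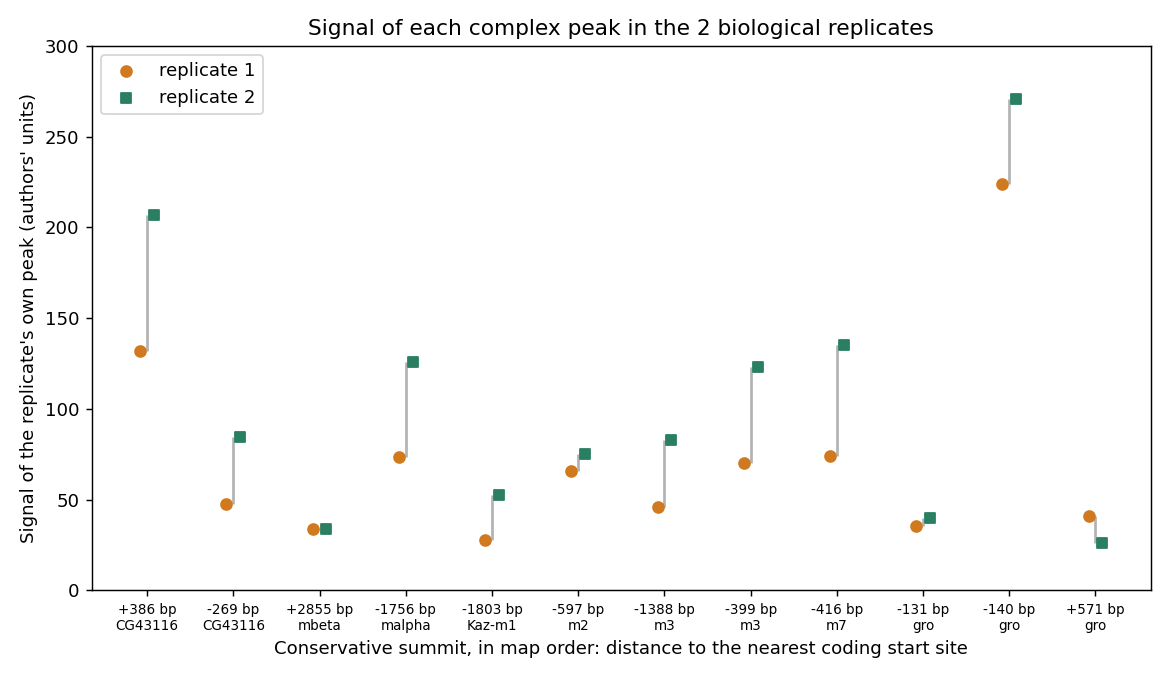
Signal in replicate 1 (circles) and replicate 2 (squares) in the authors' units for the 12 summits across the complex in map order, each named by its distance to the nearest coding start site. The peak 140 bp upstream of an internal gro start is highest in both, at 224 and 271. The summit 1803 bp upstream of Kaz-m1 lies between the 2 stretches.

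**Figure D4:**
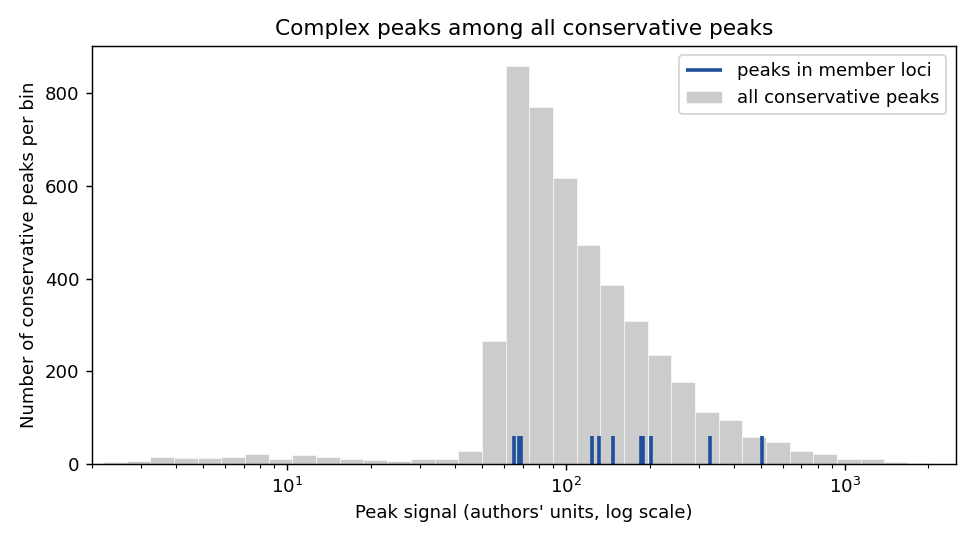
Number of conservative peaks per bin of signal in the authors' units on a log axis, with blue lines at the 11 peaks in member loci. The 11 fall between 65.0 and 505, with 3 of them below the median of 96.2.

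The TAACA core was the 1 motif of 8 found within 50 bp of the summits in member loci. It was in 5 of 11 windows, with 8 matches counted on both strands, against 24.5% of all 4706 windows. The 5 windows were those at gro (summit 26042501), E(spl)m7-HLH, E(spl)m3-HLH (26021424 and 26020435) and E(spl)m2-BFM (26018067), all in the second stretch. The palindrome ACANNTGT, bound by Iroquois proteins as pairs, was in none of the 11 and in 4.8% of all windows. The Su(H) cores GTGGGAA and GTGAGAA were in none, and in 1.04% and 1.19% of all windows. When windows reached 100 bp to each side, GTGAGAA was found at 1 of 11 summits, starting 91 bp before summit 26020435 upstream of E(spl)m3-HLH, and in 2.76% of all windows. CACGTG and CACGCG, sites of Hairy and E(spl) type repressors, were in none of the 11 windows of either size. They were in 1.08% and 1.87% of all windows reaching 50 bp to each side. The proneural E boxes CAGCTG and CAGGTG were also in none of the 11 at either size, and in 4.14% and 2.44% of all the narrower windows. Apart from TAACA, each motif was in 4.8% or less of all the narrower windows. Their absence from 11 such windows therefore says little. TAACA is a short motif in windows rich in A and T, so its count moves with base composition, whose part in it was not tested.

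Su(H) cores lay before the members without a nearby conservative Araucan summit, a pattern noticed after the values were seen. In the 500 bp before the start, GTGGGAA or GTGAGAA was found at 4 of 8 members and at 10.2% of 13945 coding genes. E(spl)mgamma-HLH had 3 matches, E(spl)m5-HLH and E(spl)m8-HLH had 2 each, and E(spl)mbeta-HLH had 1. E(spl)mdelta-HLH, E(spl)m3-HLH, E(spl)m7-HLH and gro, the 4 with a conservative summit within 500 bp, had 0. Before E(spl)m8-HLH and E(spl)mgamma-HLH, 2 cores face each other with their starts 24 bp apart, shown here on the plus strand with the cores, or their reverse complement, in capitals.
E(spl)m8-HLH (chr3R:26040012-26040052): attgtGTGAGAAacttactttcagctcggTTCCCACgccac
E(spl)mgamma-HLH (chr3R:25999553-25999593): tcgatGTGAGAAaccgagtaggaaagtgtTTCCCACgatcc

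The first core of each pair starts 223 bp before E(spl)m8-HLH and 293 bp before E(spl)mgamma-HLH. The nearest conservative summit to the E(spl)m8-HLH pair is the one before gro, 1585 bp from its first core. In the same 500 bp, TAACA was found at 7 of 8 members and 71.0% of genes, with 4 matches at E(spl)m7-HLH, 3 at gro and 0 at E(spl)mdelta-HLH. ACANNTGT was found at 0 of 8 members and 19.8% of genes. A match of letters does not show that a factor binds there.

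The other genes within the complex are E(spl)malpha-BFM, E(spl)m2-BFM, E(spl)m4-BFM and E(spl)m6-BFM, all Bearded family genes, and Kaz-m1, which encodes a Kazal type protease inhibitor. All 5 had a summit in the locus, where 43.7% of coding genes do, and they shared most of those summits with the members. Within 500 bp of an own TSS the count was 0 of 5, against 15.1% of coding genes, a share at which fewer than 1 of 5 would have one. The summit between the stretches, at 26012918, lies 1803 bp upstream of Kaz-m1 and had a signal of 85.4, with 27.5 in replicate 1 and 52.5 in replicate 2.

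Relatives and partners of the complex elsewhere varied. In the Bearded complex, whose genes also encode Neuralized inhibitors, 2 of 4 matched genes, Brd and Ocho, had a summit in the locus. They had 2 and 3 summits and shared the highest, with a signal of 65.5, 137 bp inside Ocho. Of 5 other bHLH repressor genes of the same Orange class, 2 had a summit in the locus. Both counts are near the share of all coding genes, 43.7%. Of these 5, cwo, a regulator of the circadian clock, had a signal of 111 in an intron. The pair-rule gene hry (hairy) had 60.4 at 41 bp past its TSS. The others, dpn, Hey and Sidpn, had none. Of the co-repressor genes, HDAC1, a histone deacetylase, had a highest signal of 134 in an intron of its neighbour Src64B (32.1 and 110 in replicates 1 and 2). CtBP had 107 in its own intron (46.0 and 61.7), so the order of these genes differed between the replicates.

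Among 15 genes of the Notch pathway, 10 had a summit in the locus and 5 of them within 500 bp of an own TSS, beside 43.7% and 15.1% of coding genes. The highest was at numb, which encodes an inhibitor of Notch inherited by 1 daughter cell, with 352 at 249 bp upstream (133 and 226 in replicates 1 and 2). The receptor gene N had 311 in an intron (113 and 192). Both were below the gro peak. Su(H), its partner H (Hairless), the ligand gene Ser, and Psn and Nct of the gamma-secretase had none. In all 5 lists, 21 of 31 matched genes had a summit in the locus, beside 43.7% of coding genes. The 21 include all 5 other genes of the complex, which shared most of their summits with the members. In the gene alone, without flanks, 12 of 31 had a summit, beside 12.2% of coding genes. Gene length was not matched in either share.

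The edges of the complex differed. On the left, the next conservative summit beyond CG43116 was 258.4 kb away, at 25738160 with a signal of 364. That gap was the 21st longest of 4700 gaps between neighbouring summits, whose median was 9.7 kb, and 37 coding genes lie wholly in it. The ranked list had 273 peaks there, with signals up to 81.4, and replicate 2's thresholded list had 2 and the other thresholded list of the series 1. Replicate 1's list also had 1. The summit of that list nearest to the one that bounds the gap was 1 bp away from it. Its side was not recorded, so whether it is the 1 counted in the gap is not known. For replicate 2 and the other list, the distance to the bounding summit was not measured. On the right, the last summit inside was the 65.0 peak in gro, 11520 bp from the edge, and the next outside was 4445 bp past the edge, with a signal of 98.6. Near that edge the other thresholded list of the series held 2 further peaks, in coding exons of Vps2 (65.2) and Cmpk (65.8).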

How the data were processed

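The authors deposited peak lists for each replicate and for the pair, on dm6 per the labels. Neither aligner nor peak caller is named: not given in the sources used here. The deposited signal per peak is the authors' value of unstated normalization. The deposited score runs to 1000, with 830 the lowest in the thresholded lists. A deposited −log10 value, read here as the global irreproducible discovery rate (IDR), was at least 2 in the conservative list. The 2 replicate signals of a peak were assigned to replicates through identical values in each replicate's own list, found for 12 of 12 complex peaks. Summits were 1-based. Genes came from Ensembl release 115, and 4 of 33 symbols in the lists were matched by older names and 2 not at all. Sequences were read from the NCBI Release 6 genome with pysam 0.24.0, and tables made in Python 3.11.15 with pandas 2.3.3, numpy 2.4.6 and matplotlib 3.10.9. Motifs were searched on both strands within 50 bp of summits and 500 bp upstream of gene starts. Counting was tested on simulated peaks. Named are all members, the genes nearest complex summits, 5 other complex genes, the 2 genes of highest signal in each other list and the edge peaks; further names were chosen after their values were seen. Likeness to other genes was not measured, as 2 replicates of 1 group give no profile. Members and lists were chosen with earlier results of these data known. Alternatives were other lists, single replicates, flanks, TSS windows and motif windows.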

Additional observations from a re-analysis of the deposited data

How the results depend on the processing

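No paired analysis was possible because both samples belong to 1 group. Of 40 alternative values for the counts, shares and ratios reported, 31 stayed within 1.5 times the main count or within the replicate spread. With no flanks, the summits in member loci fell to 2, the members with one to 1 and the genes of the other lists with one to 12. When each summit counted for the gene of its nearest start alone, non-coding genes included, 2 members had one, E(spl)m7-HLH and gro. A TSS window of 250 bp left 1 member, gro. Leaving out replicate 1 or replicate 2 gave 11 and 9 summits, 8 and 7 members with one, and 5 and 4 with one near an own TSS, and the gro peak was then higher than 95.8% and 95.4% of peaks, against 97.0%. Against the full ranked lists all 11 summits were listed in both replicates. Those lists hold 126366 peaks for replicate 1 and 117409 for replicate 2 on the arms, so a listing there says little. Of all 4706 conservative peaks, 4671 had a matched value in both replicates. Windows of 100 bp to each side of a summit held 16 motif matches in place of 8. Of these, 15 were TAACA, in 9 of 11 windows against 40.0% of all windows, and 1 was the Su(H) core GTGAGAA.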

Other observations

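The separation between Su(H) cores and Araucan summits at member starts depended on how far upstream was searched and on how a nearby summit was counted. With the further core form GTGTGAA added, the 500 bp before the start held a core at the same count of 4 members. All of them lack a conservative summit within 500 bp. With 1000 bp searched, 6 members had a core, and 2 of those have a nearby summit. E(spl)m7-HLH then had 3 matches of GTGGGAA or GTGAGAA and E(spl)mdelta-HLH had 1, while E(spl)m3-HLH and gro had 0. Both of these motif settings were chosen after the data were seen. In the thresholded list of replicate 2, E(spl)mbeta-HLH, which has a core, also had a summit 259 bp downstream of its start. With a TSS window of 250 bp, gro alone kept a conservative summit. E(spl)mdelta-HLH, E(spl)m3-HLH and E(spl)m7-HLH then had neither a summit nor a core in the 500 bp before the start. Over all coding genes the 2 features did not separate in this way. A core lay in the 500 bp before the start of 12.1% of 2099 genes with a summit within 500 bp of an own TSS, and of 9.87% of 11846 other genes. With 8 members in 1 region, no test of the pattern was made.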
